A study of Mus musculus with 9 samples.

Results

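Snhg1, Snhg3 and Gas5 are 3 small nucleolar RNA host genes, followed here among the 18193 genes measured on expression arrays of Argonaute-bound RNA from mouse T cells. The members were taken as every probe set that the platform annotation lists for 1 of these genes alone, 10 probe sets in all: 5 for Snhg1, 1 for Snhg3 and 4 for Gas5. Snhg3 was picked because it was higher in both stimulated cultures than in the syngeneic one, so its values in those contrasts are given as a description with no test. T cells of C57BL/6 mice were cultured for 24 h in 1 of 3 ways. Syngeneic cultures held dendritic cells of the same strain, allogeneic cultures held dendritic cells of BALB/c mice, both at 20 T cells per dendritic cell, and the remaining cultures held antibodies to CD3e and CD28, each at 0.1 µg/ml, with no dendritic cells named. All 3 groups then went through the same steps: T cells were purified by depletion on magnetic beads and crosslinked with ultraviolet light, Argonaute (AGO) was immunoprecipitated, and the RNA that came with it was amplified for the array. Each group had 3 arrays, numbered as biological replicates 1 to 3, and the labels name no shared animal, culture or day, so that p-values measure only the spread between these arrays.

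A small nucleolar RNA host gene carries small nucleolar RNAs in its introns. After splicing, the excised introns are trimmed to small nucleolar RNAs, which join box C/D or box H/ACA proteins and guide the methylation, pseudouridylation and processing of ribosomal RNA. The spliced exons of Snhg1, Snhg3 and Gas5 code for no conserved protein. Snhg1 and Gas5 belong to the genes whose transcripts start with a pyrimidine tract, as those of ribosomal protein genes do, and their spliced RNAs are known targets of nonsense-mediated decay. Gas5, named for its growth-arrest-specific accumulation, is known in lymphocytes as a brake on growth, and its RNA can bind the glucocorticoid receptor. Snhg3 hosts box H/ACA RNAs that act in the processing of the ribosomal RNA precursor. AGO holds microRNAs together with the transcripts they pair with, so a signal here is AGO-bound RNA, in which the amount of a transcript and its binding to AGO are not separated.

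The start regions of the 3 genes are shown because some host gene transcripts are known to begin with a pyrimidine tract. Each sequence runs from 100 bases before to 50 bases after a RefSeq start on GRCm38.p6, 5′ to 3′ along the gene, and capitals mark matches to any of 4 motifs searched on both strands. These were TATAAA for the TATA box, CACGTG for the E-box bound by Myc, CCAAT for the box of that name and GCCATNTT for the YY1 site. Gas5 has a pair of starts in the table.
Snhg3, chr4:132353637-132353786, minus strand: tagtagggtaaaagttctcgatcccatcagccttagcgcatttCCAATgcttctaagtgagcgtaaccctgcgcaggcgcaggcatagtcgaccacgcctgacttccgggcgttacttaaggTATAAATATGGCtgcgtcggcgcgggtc
Snhg1, chr19:8723387-8723536, plus strand: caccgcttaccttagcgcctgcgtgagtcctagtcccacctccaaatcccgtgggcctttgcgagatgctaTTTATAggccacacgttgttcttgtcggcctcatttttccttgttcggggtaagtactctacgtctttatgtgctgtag
Gas5, first start, chr1:161034501-161034650, plus strand: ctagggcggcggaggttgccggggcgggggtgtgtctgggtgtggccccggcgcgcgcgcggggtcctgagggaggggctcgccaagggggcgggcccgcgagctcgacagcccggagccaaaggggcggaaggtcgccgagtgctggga
Gas5, second start, chr1:161035066-161035215, plus strand: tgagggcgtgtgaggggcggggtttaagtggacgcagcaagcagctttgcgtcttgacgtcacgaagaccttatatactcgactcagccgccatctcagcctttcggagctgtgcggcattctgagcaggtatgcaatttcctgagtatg

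TATAAA was found at Snhg1, on the minus strand from position -29, and at Snhg3, on the plus strand from position 23 after the annotated start. It was present in 6.94% of the 32851 RefSeq start regions of this length. In Snhg3 it overlapped a match to GCCATNTT on the minus strand (3.67% of all start regions), and CCAAT (23.4%) began at position -57. CACGTG (4.35%) was in none of the 4 windows. Counted from the annotated start, the unbroken run of C and T was 5 bases at the second start of Gas5 and 3 at Snhg1. It was 0 at Snhg3 and the first start of Gas5. Whether transcripts begin at the annotated base was not tested, so these runs do not tell which of the genes carry the tract.

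The arrays numbered alike resembled each other. Array medians lay between 4.58 and 5.67 (log2). Between arrays of 1 number, 20.9% to 51.3% of all values were exactly equal, and between numbers 0% were. Within single arrays, 49.8% to 70.0% of values were shared with another probe set. Levels are therefore compared within a replicate number. The SE of a mean difference is from a fit without a term for the number (a replicate block), unless stated. Spread between numbers is thus part of that SE. Of 13 T cell genes listed, the 12 measured lay above the array median on every array, as did all 10 member probe sets.

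Snhg3 had its lowest signal in syngeneic culture in each replicate number. Its log2 signal was 6.40, 7.93 and 8.55 on syngeneic arrays 1, 2 and 3. On the allogeneic arrays it was 8.99, 8.75 and 9.23. On the anti-CD3/CD28 arrays it was 9.03, 9.17 and 9.67. All 6 stimulated arrays stood above all 3 syngeneic arrays, and syngeneic array 1 stood apart from the other syngeneic arrays. Group means were 7.63 ± 1.11 (SD, n = 3) for syngeneic, 8.99 ± 0.24 for allogeneic and 9.29 ± 0.33 for anti-CD3/CD28 culture.

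The allogeneic mean of Snhg3 was higher than the syngeneic mean by 1.36 ± 0.61 on the log2 scale (SE, limma without a replicate block), which is 2.57-fold. Within replicate numbers 1, 2 and 3 that difference was 2.59, 0.82 and 0.67. For anti-CD3/CD28 against syngeneic culture the mean difference was 1.66 ± 0.61, or 3.17-fold, with 2.63, 1.24 and 1.11 within the numbers. The difference in number 1 was thus larger than the other differences added together in both contrasts. Without syngeneic replicate 1 the mean differences were 0.75 and 1.05, and without all arrays numbered 1 they were 0.75 and 1.18. Over all genes, the allogeneic group lay wholly above the syngeneic group in 0.192%, and the anti-CD3/CD28 group in 0.412%. Nothing is read from these shares, since the gene was chosen on these contrasts.

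Some Snhg3 values are held in common with other probe sets of the same array. Its value on syngeneic array 1 was exactly that of 15 other probe sets, among them a Snhg1 probe set, and its value on syngeneic array 3 that of 12 others. Snhg3 has 1 probe set, so no second measurement of the transcript stands beside it.

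Between the stimulated cultures Snhg3 was lower in allogeneic than in anti-CD3/CD28 culture by a small amount in each replicate number. The differences were -0.04, -0.42 and -0.44, with a mean of -0.30 ± 0.61 (SE) and an adjusted p = 1 in limma. The 95% interval of that difference ran from -1.63 to 1.03. With the replicate block the SE was 0.41, the interval -1.33 to 0.73 and the adjusted p 0.936. A gene lower in all 3 numbers was found for 2.58% of genes in this comparison. Both SEs are estimated over all 3 groups, syngeneic arrays included, while the SD of the 3 differences within numbers was 0.22. The order of Snhg3 levels was thus anti-CD3/CD28, allogeneic, syngeneic in every replicate number. The difference between the first and second of these was not called.

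**Figure D1:**
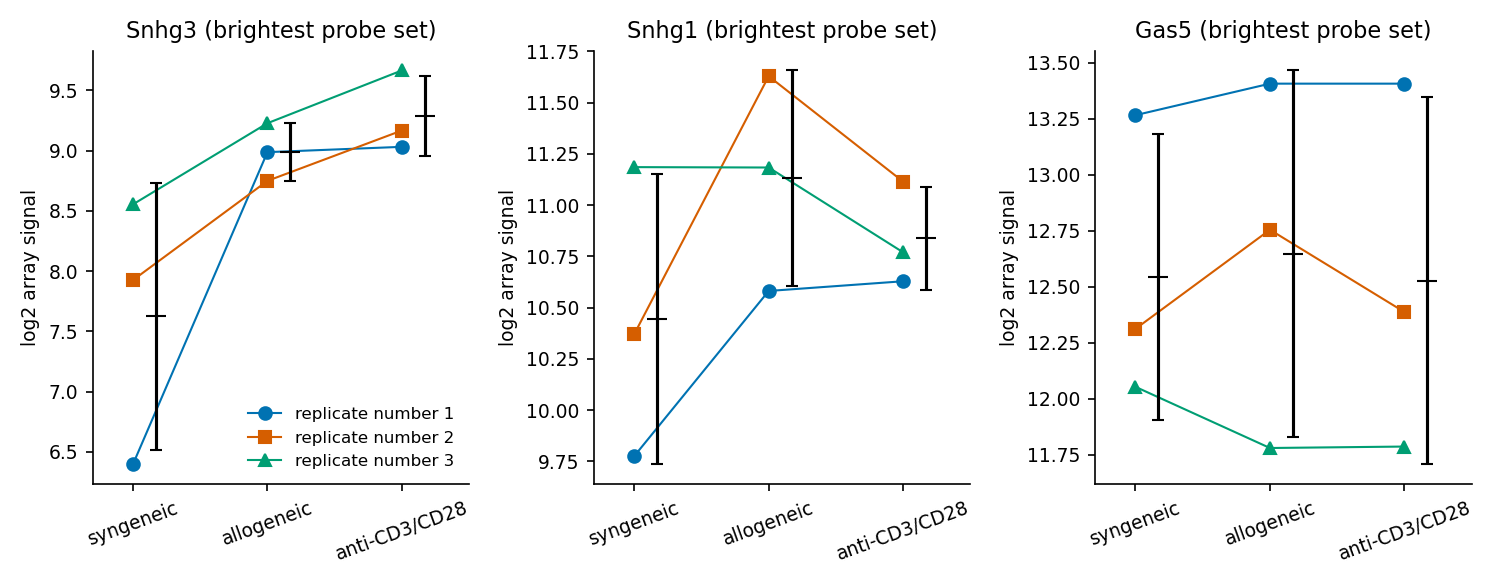
Log2 array signal (y axis) of the brightest probe set of Snhg3, Snhg1 and Gas5 in the 3 cultures (x axis); points joined by a line are arrays of 1 replicate number, and black bars give the group mean and SD of 3 arrays. Snhg3 is lowest in syngeneic culture in each number, Snhg1 in numbers 1 and 2, and the Gas5 lines stay apart by number.

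Snhg1 was higher in both stimulated cultures in replicate numbers 1 and 2 and not in number 3. On its brightest probe set the syngeneic arrays stood at 9.78, 10.37 and 11.19. The allogeneic arrays stood at 10.58, 11.63 and 11.18. The anti-CD3/CD28 arrays stood at 10.63, 11.11 and 10.77. The 3 groups overlapped, with syngeneic array 3 above every anti-CD3/CD28 array.

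The allogeneic minus syngeneic difference of Snhg1 averaged 0.69 ± 0.43 (SE), with 0.81, 1.26 and -0.0019 within numbers 1, 2 and 3. It was not called (limma, adjusted p = 1; 0.709 with the replicate block), and its 95% interval was -0.25 to 1.63, or -0.05 to 1.43 with the block. The limma test called 0% of all genes in this comparison, with or without the block. At an unadjusted p under 0.05, 27 genes passed without the block (0.148%) and 825 with it (4.53%). For anti-CD3/CD28 against syngeneic culture the difference was 0.39 ± 0.43, with 0.85, 0.74 and -0.42 within the numbers. That was not called either (limma, adjusted p = 1; 0.729 with the block), with an interval of -0.55 to 1.34. In that comparison 0% of genes were called with or without the block, 156 had an unadjusted p under 0.05 (0.857%), and 1236 had one with the block (6.79%). Allogeneic against anti-CD3/CD28 culture gave 0.29 ± 0.43 (limma, adjusted p = 1), with an interval of -0.65 to 1.24. The test called 0% of genes there too, with 24 genes (0.132%) at an unadjusted p under 0.05 and 205 (1.13%) with the block.

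The 5 probe sets of Snhg1 gave like patterns for allogeneic culture. All 5 were higher than in syngeneic culture in number 1, by 0.55 to 1.06, and in number 2, by 0.87 to 1.58. In number 3 their differences ran from -0.03 to 0.04, and 2 of the 5 were exactly equal on both arrays. For anti-CD3/CD28 culture all 5 were again higher in numbers 1 and 2, by 0.41 to 1.20 and by 0.30 to 0.94. In number 3 they parted, with the 3 brightest lower (differences down to -0.57) and the 2 dimmest higher, by 0.47 and 0.72. Group mean differences over the 5 probe sets ran from 0.62 to 0.88 for allogeneic and from 0.38 to 0.91 for anti-CD3/CD28 culture, and none was called among 34945 probe sets (limma, lowest adjusted p with the replicate block 0.747 and 0.736). The probe sets share 1 gene and the same RNA and are no replicates of each other.

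Gas5 differed little between cultures on its brightest probe set, and its level followed the replicate number. Syngeneic arrays stood at 13.27, 12.31 and 12.05. Allogeneic arrays stood at 13.41, 12.75 and 11.78. Anti-CD3/CD28 arrays stood at 13.41, 12.39 and 11.79. In each culture array 1 was highest and array 3 lowest. The allogeneic and anti-CD3/CD28 values of number 1 were exactly equal, as many values of the table are between arrays of 1 number.

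The allogeneic minus syngeneic difference of Gas5 was 0.10 ± 0.47 (SE), with 0.14, 0.44 and -0.27 within the numbers. For anti-CD3/CD28 minus syngeneic it was -0.017 ± 0.47, with 0.14, 0.08 and -0.27. Neither was called in limma (adjusted p = 1 each; 0.790 and 1 with the replicate block). The 95% interval with the block was -0.25 to 0.46 for allogeneic and -0.37 to 0.34 for anti-CD3/CD28 culture, and without it -0.92 to 1.13 and -1.04 to 1.01. Allogeneic minus anti-CD3/CD28 was 0.12 ± 0.47 (limma, adjusted p = 1). Leaving out single arrays turned the sign of each of these small differences.

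The other Gas5 probe sets gave small to larger differences from syngeneic culture, and differences between probe sets were not tested. The second brightest, with the same signs within the numbers as the brightest, differed by 0.21 ± 0.37 and 0.05 ± 0.37 from syngeneic culture (SE, allogeneic and anti-CD3/CD28). The third brightest differed by 0.57 ± 0.52 and 0.76 ± 0.52. The dimmest differed by 0.58 ± 0.57 and 0.55 ± 0.57. For anti-CD3/CD28 culture the third brightest was higher in all 3 numbers, by 0.95, 0.52 and 0.81, and so was the dimmest, by 0.06, 0.73 and 0.87. The brighter pair were lower in number 3. In allogeneic culture all 4 were higher in numbers 1 and 2 and 3 of 4 were lower in number 3. None was called (limma, lowest adjusted p with the replicate block 0.736). The stretch of Gas5 that each probe set covers was not analysed here.

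**Figure D2:**
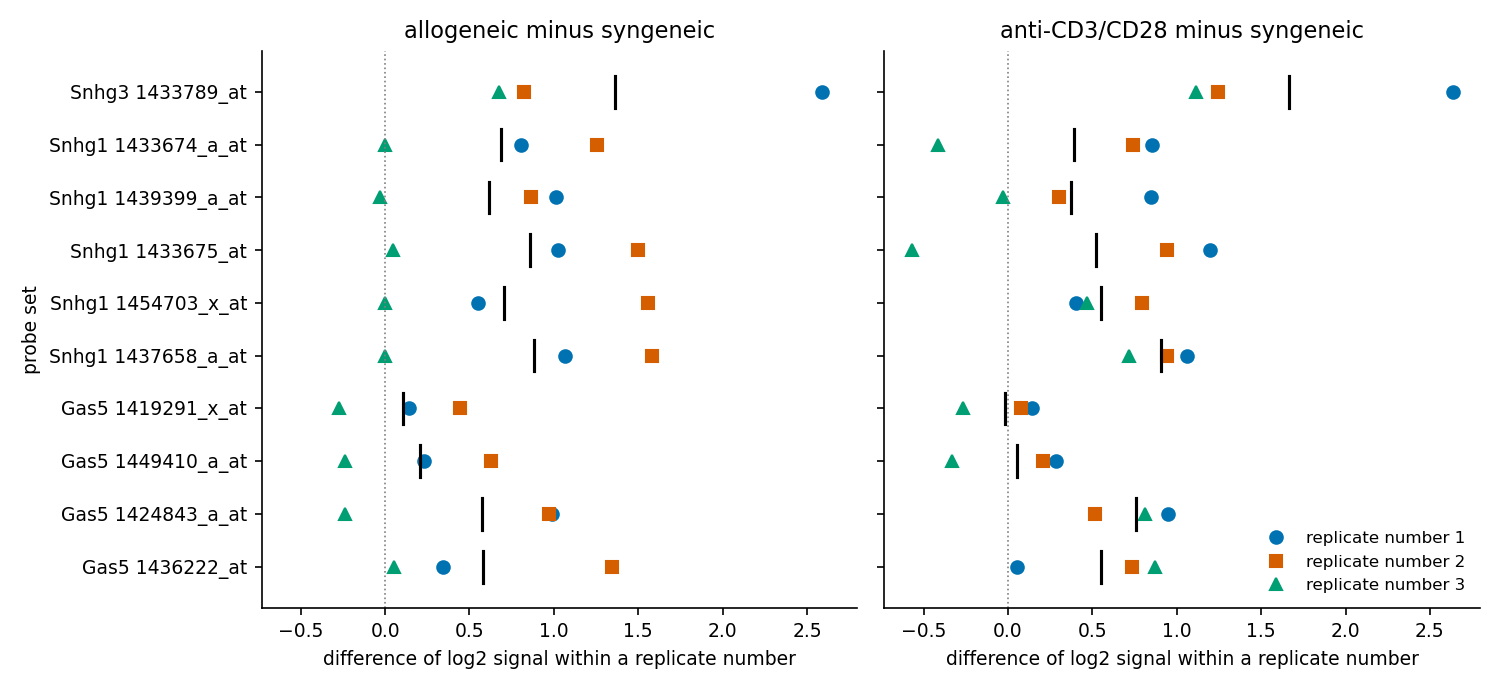
Difference of log2 signal from syngeneic culture within each replicate number (x axis) for all 10 probe sets (y axis, brightest first within a gene); coloured symbols are numbers 1 to 3 and black ticks their mean. Snhg3 lies right of 0 in every number, while most Snhg1 and Gas5 probe sets lie right of 0 in numbers 1 and 2 and near or left of it in number 3 for allogeneic culture.

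Among other host genes without a known protein none was called. Of 20 such genes listed, 15 were measured and 11 of these lay above the array median on every array. In allogeneic against syngeneic culture 11 of 15 had a higher mean and 4 a lower one, with a median log2 difference of 0.14, against 0.03 over all 18193 genes. In anti-CD3/CD28 against syngeneic culture 8 were higher and 7 lower, with a median of 0.0021. Of all 18193 genes, 10185 had a higher mean in the allogeneic contrast and 8832 in the antibody contrast. Higher in all 3 numbers were 3 of 15 in the allogeneic contrast, Snhg4, Snhg10 and Snhg16, and 2 of 15 in the antibody contrast, Snhg4 and Snhg10, where 7.29% and 7.8% of all genes were.

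Snhg4 came closest to the pattern of Snhg3 in this list. Its signal was 6.95, 8.80 and 8.40 on the syngeneic arrays. It was 8.48, 9.10 and 8.44 on the allogeneic and 8.52, 9.42 and 8.67 on the anti-CD3/CD28 arrays. As with Snhg3, syngeneic array 1 was the lowest by a wide margin, but the groups overlapped. The differences from syngeneic culture were 0.61 ± 0.61 and 0.81 ± 0.61 (SE; limma, adjusted p = 1 each, and 0.709 and 0.729 with the replicate block). Snhg5 differed by 0.37 ± 0.35 and 0.24 ± 0.35, and Snhg6 by 0.39 ± 0.45 in allogeneic culture, both from numbers 1 and 2, as with Snhg1. Snhg7 differed by 0.46 ± 0.57 in the antibody culture, mostly from number 3 (1.03). Snhg11 lay near the bottom of the range in all groups (means 3.83 to 4.21). Snhg10 and Snhg16 are named because of these counts, after their values were seen. Between the stimulated cultures the median of the 15 genes was 0.05, with Snhg8, Snhg6, Zfas1 and Snhg7 at the smallest p and none called.

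Protein-coding host genes, whose introns hold small nucleolar RNAs as well, were measured for 24 of 33 listed. In allogeneic culture 15 were higher and 9 lower than in syngeneic culture, with a median difference of 0.06. In anti-CD3/CD28 culture 19 were higher and 5 lower, with a median of 0.13. Of all 18193 genes, 10185 and 8832 had higher means in these contrasts, with medians of 0.03 and 0. None was called in limma. Nop56 and Nop58 are also counted among the box C/D proteins below, and Dkc1 among the box H/ACA proteins. Nop58, a core box C/D protein that is itself a host gene, stood at 9.69, 10.47 and 10.42 on the syngeneic arrays. It stood at 10.73, 10.91 and 11.37 on the allogeneic and 10.88, 11.18 and 11.83 on the anti-CD3/CD28 arrays. The syngeneic arrays did not overlap with either group, and the differences were 0.81 ± 0.40 and 1.10 ± 0.40 (SE, limma, adjusted p = 1 each, and 0.709 and 0.677 with the replicate block). Over all genes, the stimulated group lay wholly above the syngeneic group in 0.192% (allogeneic) and 0.412% (anti-CD3/CD28). Genes of this list were named by their smallest p. Eif4a1, an RNA helicase of translation initiation, differed by 0.96 ± 0.57 in the antibody contrast, with 0.77, 1.16 and 0.94 within the numbers. With the replicate block its SE was 0.21 and its adjusted p 0.684 (limma). Nop56, the partner of Nop58, differed by 0.34 ± 0.34 and 0.49 ± 0.34.

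The proteins that bind small nucleolar RNAs tended to higher means in stimulated culture without any call. Of 12 box C/D proteins and assembly factors, 11 were measured, of which 9 were higher and 2 lower in allogeneic culture (median 0.34, with 0.47, -0.10 and 0.58 within numbers 1, 2 and 3). In antibody culture 8 were higher and 3 lower (median 0.49). All 6 box H/ACA genes had higher means in both contrasts, as 10185 and 8832 of all 18193 genes did, with medians of 0.34 and 0.52. Of these 6, 2 were higher in all 3 numbers in allogeneic and 3 in antibody culture, where 7.29% and 7.8% of all genes were. Gar1, a core box H/ACA protein and thus of the class that Snhg3's small nucleolar RNAs join, differed by 0.74 ± 0.53 in allogeneic and 0.81 ± 0.53 in antibody culture (SE; limma, adjusted p = 1 each, and 0.709 and 0.684 with the block). Nhp2, another core protein, differed by 0.84 ± 0.71 and 0.94 ± 0.71. In allogeneic culture the median difference of box H/ACA genes was 0.76, -0.12 and 0.66 within numbers 1, 2 and 3, so number 2 went the other way in both lists. In antibody culture it was 0.79, 0.55 and 0.24. Between the stimulated cultures the medians were -0.15 for box C/D and -0.09 for box H/ACA genes.

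**Figure D3:**
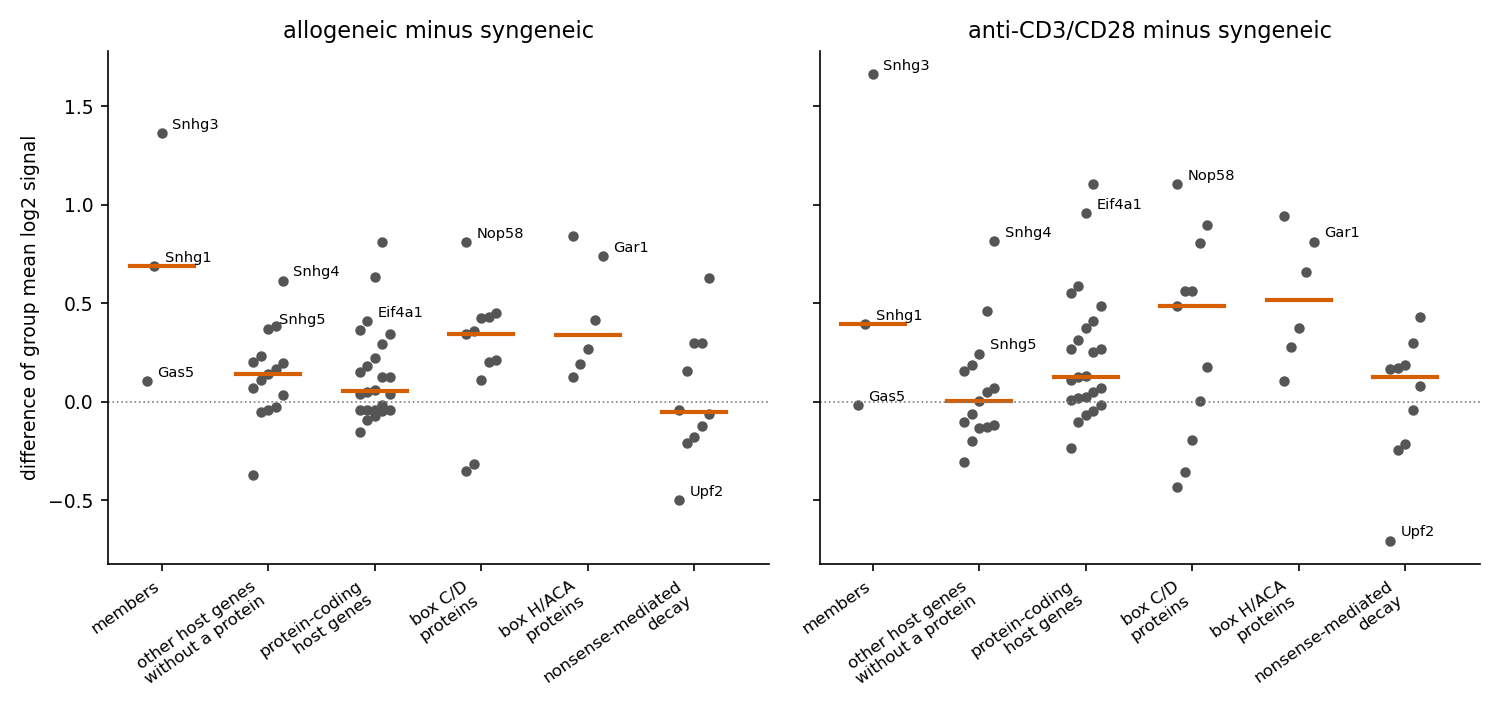
Difference of group mean log2 signal from syngeneic culture (y axis) for the members and each measured gene of the host gene, small nucleolar RNP and nonsense-mediated decay lists (x axis). Each point is a gene and each orange bar the median of its column. Snhg3, chosen for its level in these contrasts, lies at 1.36 and 1.66. The bar of the members lies at Snhg1, 0.69 and 0.39, and the medians of the other lists lie between -0.05 and 0.52.

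Nonsense-mediated decay, which removes spliced Snhg1 and Gas5 RNA, was covered by 10 of 14 listed factors. Of these, 4 were higher and 6 lower in allogeneic culture (median -0.05), and 6 were higher and 4 lower in antibody culture (median 0.13). Within numbers 1, 2 and 3 the medians were -0.07, -0.02 and 0.06 for allogeneic culture. For antibody culture they were -0.02, 0.05 and -0.04, so no single number reached the 0.13. Upf2, which bridges the decay factors to the exon junction complex, was lower in each number of both contrasts, as 7.96% and 9.15% of all genes were. Its differences were -0.50 ± 0.59 for allogeneic and -0.70 ± 0.59 for antibody culture (SE; limma, adjusted p = 1 each, and 0.709 and 0.677 with the block).

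The genes next to the members on the chromosome were read by their order in RefSeq. Rcc1, the nuclear exchange factor for Ran that adjoins Snhg3, stood at 6.10, 6.59 and 7.57 on syngeneic, 6.81, 6.52 and 8.91 on allogeneic and 6.87, 6.72 and 8.73 on anti-CD3/CD28 arrays. Its differences were 0.66 ± 0.81 and 0.69 ± 0.81 (SE; limma, adjusted p = 1 each), and in number 2 the 3 arrays lay close together. Phactr4, on the other side of Snhg3, differed the opposite way, by -0.97 ± 0.88 and -1.49 ± 0.88, and was lower in all 3 numbers of both contrasts. Wdr74, next to Snhg1, differed by 0.51 ± 0.74 and 0.85 ± 0.74, and Slc3a2, on its other side, by 0.11 ± 0.88 and 0.02 ± 0.88. Of the neighbours of Gas5, Zbtb37 differed by -0.35 ± 0.62 and -0.09 ± 0.62, and Cenpl by 0.11 ± 0.59 and -0.27 ± 0.59. None of these 6 genes was called.

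Genes whose signals ran most like a member's were found by the root mean square difference over the 9 arrays, after the mean of each replicate number was removed, among 8821 of the brighter named genes. For Snhg3 these were the arginine methyltransferase gene Prmt1 at 0.14, Septin11 at 0.21, the mitotic ubiquitin-conjugating enzyme gene Ube2c at 0.26, the mitochondrial membrane protein gene Stoml2 at 0.26 and the SUMO-activating enzyme gene Sae1 at 0.27, against a median of 0.86. Prmt1 stood at 7.37, 8.43 and 9.97 on syngeneic, 9.93, 8.89 and 10.59 on allogeneic and 10.11, 9.88 and 10.94 on anti-CD3/CD28 arrays. Like Snhg3 it had its lowest value of all on syngeneic array 1, and its differences from syngeneic culture were 1.21 ± 0.68 and 1.72 ± 0.68. For Snhg1 they were Gtf3a, the transcription factor of the small ribosomal RNA genes outside the nucleolus, at 0.12, Tma16 at 0.13, Mir155hg, the host gene of a microRNA induced in activated lymphocytes, at 0.14, Zranb2 at 0.14 and Bcs1l at 0.14, against a median of 0.47. Mir155hg was higher in number 1 (0.87 and 0.75) and number 2 (1.47 and 0.91) and lower in number 3 (-0.43 and -0.37) for allogeneic and antibody culture. For Gas5 the nearest were Zfp931, Mrvi1, Ano10, Nhej1 and Alkbh1, at 0.05 to 0.06 against a median of 0.31. Genes found by this search run like their member by choice, and Snhg3 was itself chosen for its rise. Nothing is read from the differences of Prmt1, Mir155hg or the other genes found.

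Genes of dividing cells and of macrophages differed between the same arrays as Snhg3. Of 12 mitosis genes listed, the 11 measured all had higher means in both stimulated cultures, with median differences of 1.02 in allogeneic (2.01, 0.39 and 0.73 within the numbers) and 1.14 in antibody culture (2.17, 1.36 and 0.48). Their mean signal was 6.31 to 8.12 on syngeneic, 7.40 to 8.99 on allogeneic and 8.29 to 8.55 on anti-CD3/CD28 arrays. Syngeneic array 1 was the lowest for these genes, as for Snhg3 and Snhg4. The 12 measured of 13 macrophage and monocyte genes all had lower means in both stimulated cultures, with medians of -0.82 and -1.10. Their mean signal was 6.35 to 7.57 on syngeneic, 5.13 to 6.03 on allogeneic and 4.35 to 5.95 on anti-CD3/CD28 arrays, and 4 of the 12 lay above the array median on every array. The 10 measured of 11 dendritic cell genes had medians of -0.19 and -0.63, and the 12 T cell genes 0.07 and 0.29. The 7 measured B cell genes had medians of -0.40 and -0.14 and the 5 fibroblast genes -0.69 and -0.81. The fibroblast differences came from number 2 (medians of -2.08 and -2.52), while the medians within numbers 1 and 3 were 0. The part of these cells in the host gene differences was not tested, and in such bulk samples fewer cells of a type and less RNA per cell cannot be told apart.

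**Figure D4:**
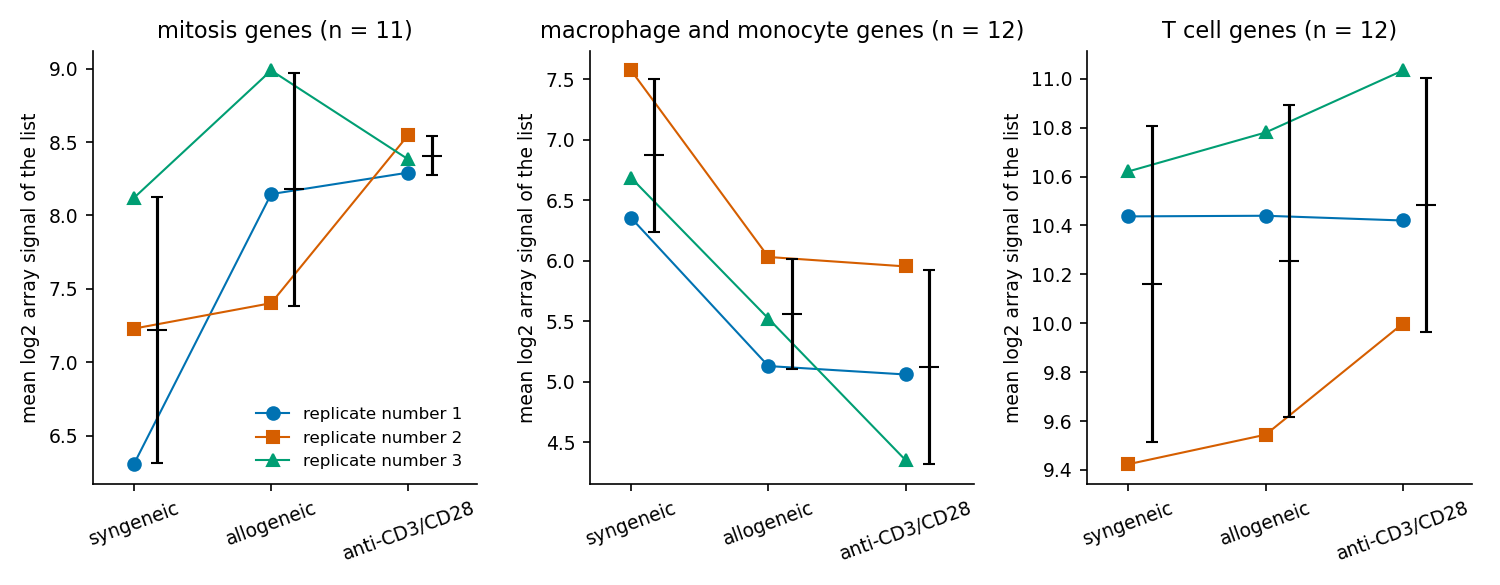
Mean log2 array signal (y axis) of 11 mitosis, 12 macrophage and monocyte and 12 T cell genes in the 3 cultures (x axis); points joined by a line are arrays of 1 replicate number, and black bars give the mean and SD of 3 arrays. Mitosis genes are lowest on syngeneic array 1, at 6.31, and macrophage genes are highest in syngeneic culture in each number.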

How the data were processed

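The authors deposited log2 signals per probe set, made with RMA (robust multi-array average) per the submitters' processing notes. The software and whether all 9 arrays were normalized together are not stated there, and the values were used as deposited. From 45101 probe sets, 64 controls were dropped, as were 932 annotated to more than 1 gene and 9160 without a gene. Symbols were updated by gene ID for 34741 of the other 34945. The brightest probe set by its mean level stood for each of 18193 genes. limma 3.58.1 (R 4.3.3) was fitted with 1 mean per group, all 9 arrays, an intensity trend and Benjamini-Hochberg adjustment over all genes (threshold 0.05), and again over all probe sets. The script was checked on simulated data.

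How far arrays of 1 replicate number go together was read from deviations from the group means. Same-number arrays (9 pairs) correlated at 0.811 to 0.921, and arrays unlike in number and group (18 pairs) at -0.597 to -0.165. Deviations cancel within a group, so the negative values follow from the positive ones. Arrays of 1 number thus varied together, but a shared origin of the cells and shared processing cannot be told apart. The labels state no pairing. A fixed replicate block is an alternative, as are a random block, other scalings, a filter on dim genes (40th percentile), other variance priors, other probe set choices and leaving out arrays.

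Members and gene lists were chosen with earlier results of these data known. Named were up to 4 genes of a list with the smallest p in a comparison, Rcc1 and the 5 genes most like each member. The other genes next to the members were added later. Scanner files and input RNA were not analysed here, and the number of arrays limits the precision.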

Additional observations from a re-analysis of the deposited data

How the results depend on the processing

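The replicate block, fixed or random, changed no call of Snhg1 or Gas5, nor of Snhg3 between the stimulated cultures. Without a block and with the fixed block 0% of all genes were called, so the unchanged calls say nothing particular about these genes. With the fixed replicate block the SE for allogeneic minus syngeneic fell from 0.61 to 0.41 for Snhg3, whose difference stayed at 1.36, from 0.43 to 0.29 for Snhg1 and from 0.47 to 0.14 for Gas5. For Snhg3, chosen on that contrast, the values are a description. Blocks, variance priors and the filter on dim genes leave these differences as they are and alter only their errors and p-values. Snhg1 was not called under any alternative. The lowest adjusted p among the Snhg1 contrasts was 0.62, and for Snhg3 between stimulated cultures it was 0.936 (limma).

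Gas5 turned sign for anti-CD3/CD28 minus syngeneic with arrays centred on their medians (0.017), with the mean of all probe sets (0.34) and with the second brightest probe set (0.054), where the cause was not tested. Leaving out 1 array moved Gas5 from -0.28 to 0.54 (allogeneic minus syngeneic), from -0.46 to 0.35 (anti-CD3/CD28 minus syngeneic) and from -0.26 to 0.56 (allogeneic minus anti-CD3/CD28). The arrays that turned the first were syngeneic 2 and 3 and allogeneic 1, the second syngeneic 1 and anti-CD3/CD28 2 and 3, and the third allogeneic 1 and anti-CD3/CD28 3. The same range was 0.35 to 1.06, 0.06 to 0.76 and 0.04 to 0.57 for Snhg1, and 0.75 to 1.83, 1.05 to 2.13 and -0.43 to -0.11 for Snhg3. Snhg3 was chosen for its rise over syngeneic culture, so nothing is read from the sign of its ranges against that culture. With arrays centred on their medians, protein-coding host genes moved to 0.16 for anti-CD3/CD28 minus syngeneic and to -0.0745 for allogeneic minus anti-CD3/CD28.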

Other observations

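The gene of the glucocorticoid receptor, which Gas5 RNA can bind, and genes that the receptor induces were all measured, 8 in all. In allogeneic against syngeneic culture 3 were higher and 5 lower (median -0.22). In anti-CD3/CD28 against syngeneic culture 2 were higher and 6 lower (median -0.42). Over all 18193 genes the medians were 0.03 and 0, and 7587 and 8592 had lower means. Sgk1, a kinase gene induced by glucocorticoids, differed by -1.27 ± 0.55 and -2.37 ± 0.55 (SE; limma, adjusted p = 1 each, and 0.709 and 0.677 with the replicate block), with -2.36, -1.62 and -3.12 within the numbers for the antibody culture. Dusp1, a phosphatase gene of the same list, differed by -0.62 ± 0.55 and -1.47 ± 0.55. Nr3c1, the receptor itself, differed by -0.24 ± 0.46 and -0.51 ± 0.46. Other genes of the list went the other way. Per1 had means of 5.80 in syngeneic, 6.05 in allogeneic and 6.19 in anti-CD3/CD28 culture. For Fkbp5 these were 7.63, 7.64 and 7.76. Tsc22d3 was higher in allogeneic culture only (8.58, 8.72 and 8.26 in the same order). None was called, and macrophage and monocyte genes were lower in the same arrays, whose part was not tested.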
